A study of Homo sapiens with 7 samples.

Results

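The DNA binding of MYC is described here over 6313 genomic regions, found with ChIP-seq (sequencing of the chromatin that an antibody precipitates). The cells were DLD-1, a human cell line established from a colon adenocarcinoma. A region was kept when overlapping peaks (1 bp or more) were listed in both MYC libraries, and the 6313 regions were part of 24855 that had a peak in either. The replicate 1 list held 8636 peaks and the replicate 2 list held 22532, of 37164 peaks in the 6 lists of the series. All cells of the series had been infected with a retrovirus carrying MycER, a MYC protein fused to a hormone-binding domain that responds to 4-hydroxytamoxifen (4-OHT). The 2 MYC samples were taken after 8 hr of MYC activation, with 4-OHT at 500 nM, and were precipitated with an antibody against MYC (N-262). The 2 ATF4 samples used for comparison had the same cells, inducer and time and an antibody against ATF4, a stress-response transcription factor. A rabbit IgG precipitation, which measures unspecific recovery of chromatin, was labelled as activated and made from 1 sample. Its only possible place in the values is the background columns of the peak lists, whose headers leave the background library unnamed. MYC binding in vehicle-treated cells was not analysed here, so binding that followed activation cannot be told apart from binding already present. Cells given 4-OHT but lacking MycER were not analysed here either.

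MYC is a basic helix-loop-helix leucine zipper transcription factor that binds DNA as a dimer with its partner MAX. The dimer prefers E-boxes, short palindromes of which CACGTG is the canonical form, and is known for occupying the promoters of genes for ribosome production, translation and metabolism. In colon cancer cells MYC is a target of the Wnt pathway and a driver of growth.

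The promoter sequences that carried the strongest MYC signal together with a CACGTG are shown first, because the motif at the peak is what the binding values below are read against. Each is a stretch of up to 30 bases of RefSeq promoter sequence (GRCh38.p14, the assembly of the hg38 build of the peak lists), printed 5′ to 3′ on the strand of the gene, with CACGTG in capitals. They are the 14 strongest regions at a named gene start whose nearest CACGTG lay within 100 bp of the replicate 2 peak centre, with predicted genes left out and each site shown once. Those of NME1 and RNF145 are shorter because the promoter window ends there.
CYTH1, chr17:78717078-78717107, minus strand: gcatggctgcagCACGTGgcagtgggggag
NME1, chr17:51153581-51153608, plus strand: agtgctgcgaacCACGTGggtcccgggc
NAT10, chr11:34105602-34105631, plus strand: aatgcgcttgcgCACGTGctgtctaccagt
TBL1X, chrX:9463215-9463244, plus strand: ggggaagggaagCACGTGtagccagggcag
TMA16, chr4:163494684-163494713, plus strand: cttctcaggcgcCACGTGggattcggcccg
G6PC3, chr17:44070670-44070699, plus strand: tgcaacagtggcCACGTGgggccctgagga
UTP25, chr1:209827974-209828003, plus strand: agtcagcgagccCACGTGcttgtgttgact
SEC14L1, chr17:77088682-77088711, plus strand: agtaagtggagaCACGTGctttggcctgtt
ALOXE3, chr17:8118544-8118573, minus strand: tgtggctgcagtCACGTGtgatttatgacc
GNL3, chr3:52686026-52686055, plus strand: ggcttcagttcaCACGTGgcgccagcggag
RNF145, chr5:159209784-159209803, minus strand: agCACGTGtgtcagaatggc
TSPAN4, chr11:844008-844037, plus strand: accccacccagcCACGTGcggagccacgag
PNO1, chr2:68157885-68157914, plus strand: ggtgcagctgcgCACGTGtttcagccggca
TNPO2, chr19:12723939-12723968, minus strand: ggcggctttctgCACGTGtttctcagccca

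The CACGTG of CYTH1, a gene for an exchange factor of ARF GTPases, lay 7.5 bp from the replicate 2 peak centre. Its region had a normalized tag count (tags per 10 M tags of the library) of 32.3 in replicate 1 and 45.7 in replicate 2. Both background columns were at their lowest listed value there (0.2 and 0.5 tags), so its fold is set by that value and is not given. This region lies inside the annotated span of CYTH1, at an internal start. NAT10, an RNA acetyltransferase of the nucleolus, had 26.6 and 39.7 with the motif 25.5 bp from the centre. TBL1X, a subunit of nuclear receptor corepressor complexes, had 23.3 and 34.1 with the motif 1.5 bp from the centre. G6PC3, a glucose-6-phosphatase, had 19 and 28.7 and held 2 copies of CACGTG. GNL3 and PNO1, both for ribosome assembly factors, had 18.1 and 25.3, and 14.3 and 23.2. The site at GNL3 also lies upstream of PBRM1, a chromatin remodelling gene that starts in the opposite direction, and 1 peak cannot be assigned to either gene. The region of PNO1 is likewise shared, with an end of DNAAF10.

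The 2 libraries differed in depth. Replicate 1 held 21.04 M tags and replicate 2 held 50.11 M, so that 1 tag was worth 0.4754 normalized tags in the first and 0.1996 in the second, and the background library held 43.29 M. Precision at a single region was low in replicate 1: the median region had 13 tags there, whose exact 95% Poisson interval of 6.92 to 22.2 tags corresponds to 3.29 to 10.6 normalized tags, covering counting error only. The labels do not say whether the replicates came from separate cultures, so differences between them may be technical.

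Across the 6313 regions the median normalized tag count was 6.18 in replicate 1 (5.23 to 8.08 from the 25th to the 75th percentile, highest 36.1) and 8.98 in replicate 2 (6.39 to 13, highest 53.1). The value was higher in replicate 2 at 5304 regions, or 84%. The ranks of the regions were similar in both libraries, with a Spearman correlation of 0.722 over the 6313 regions, which were chosen for a peak in both. Binding was spread over many regions and not held by a few: the strongest 10%, 631 regions, took 20.5% of the tags in regions in replicate 1 and 21.7% in replicate 2. The weakest 10% had medians of 4.75 and 4.19.

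**Figure D1:**
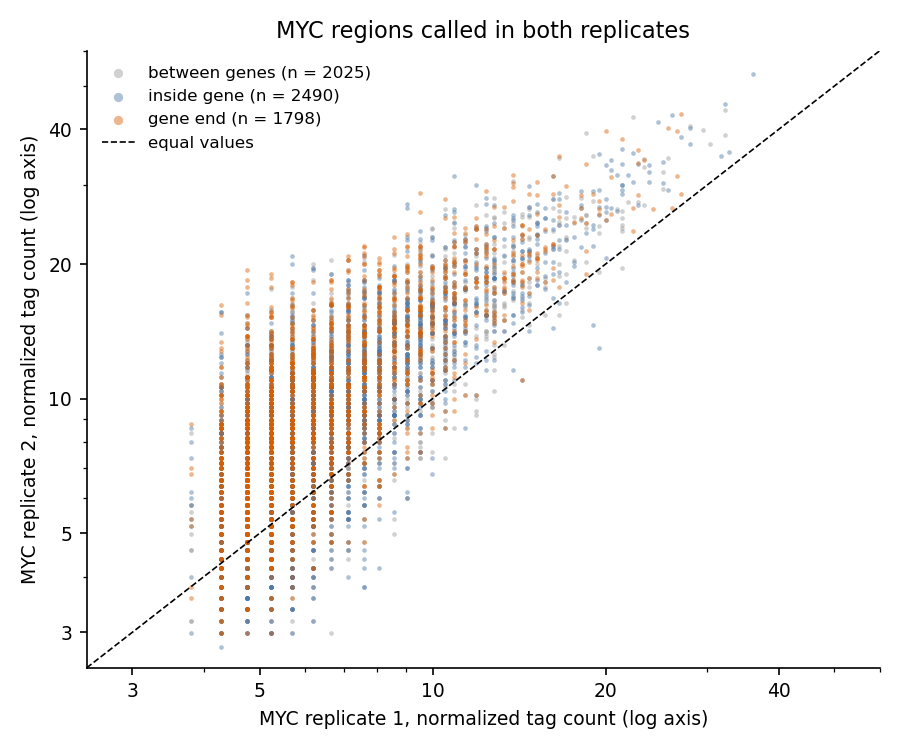
Normalized tag count of each of the 6313 regions in MYC replicate 1 (x axis) and replicate 2 (y axis), both log axes, coloured by place (1798 at a gene end, 2490 inside a gene, 2025 between genes). Points lie mostly above the line of equal values, 84% of them, and gene-end regions do not form a separate high group.

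Strong replicate 1 peaks were mostly found again, with 1 exception. Of replicate 1 peaks under 5 normalized tags, 50.7% had a replicate 2 peak (exact binomial 95% interval 48.9 to 52.5), against 77.5% of those from 5 to 7, 93% from 7 to 10 and 96.7% from 10 to 15. Above 15 the share fell back to 81.4% (76.2 to 85.9, 219 of 269). The 12 strongest peaks that only replicate 1 had reached 45.2 to 124.1 normalized tags, above the 36.1 of the highest region called in both, but each was under 2-fold over background. Of the 12, 10 overlapped a peak in both replicate 1 ATF4 lists (control and activated) and 0 overlapped one in either replicate 2 ATF4 list. The highest, on chromosome 16 from 46390598 to 46390746, had 263 tags against 133.1 background tags scaled to the same depth, and a fold of 1.98. In all, 68 peaks of replicate 1 alone were under 2-fold, of which 39 were also in both replicate 1 ATF4 lists, against 30 of the 6313 regions. Peaks found only in replicate 2 were weak, with a median of 4.19 normalized tags over 16219 peaks.

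Background at the regions was low and did not follow the MYC signal. Per 10 M tags, the background had medians of 0.713 tags in the replicate 1 list and 0.693 in the replicate 2 list, against the median MYC signal of 6.18 and 8.98. Background values of the same region in both lists had a Spearman correlation of 0.808. The paired values, such as 2.4 and 5 tags at ENO1, have the scaling of 1 background library counted in both lists. The correlation is therefore not agreement between separate background measurements. The correlation of background with the MYC signal was 0.0695 in replicate 1 and 0.0291 in replicate 2, over 6313 regions that share each library. The peaks were listed with a fold and p-value over this same background, and the calling settings are not given. How far the calling itself set the low background at the regions was not tested. Background tags given from here on are those of the replicate 2 list, unscaled, in a library of 43.29 M tags. At 297 regions the background column held its lowest listed value, 0.5 tags, and at 68 it was over 10 tags.

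For the authors' fold over background the medians were 10.29 and 12.44. It was at least 4 in both lists at 5680 regions (90%) and at least 16 in both at 1589 (25.2%), while 170 regions (2.69%) were under 4 in both. Only 5 regions were under 2 in both lists. The region with the highest background, on chromosome 16 from 34594541 to 34594717, lies 213059 bp from CCNYL1B, the nearest gene. It had 16.6 and 15.4 normalized tags, folds of 1.44 and 1.3, and one of the 4 highest focus ratios, 0.946 and 0.951. It therefore ranks high by tags and by shape and lowest by fold. The next were near PARP16 (5.23 and 8.78 tags, folds of 1.89 and 1.73) and near OSBP (4.75 and 6.59 tags, folds of 1.87 and 1.5). A region in RRM2, a ribonucleotide reductase subunit needed for DNA synthesis, had 4.75 and 5.39 tags and folds of only 1.87 and 1.94. Regions in JUP and near SCAND3 were also among the 6 lowest, with replicate 2 folds of 1.66 and 1.86. The other 3 regions with the highest background had higher folds, all under the medians. That near RNASE12 had 18 background tags, 17.1 and 22.8 normalized tags and folds of 6.34 and 5.47. The region 243 bp from ZNF143 had 7.61 and 13.2 tags with 17 background tags, and folds of 2.35 and 3.35. A region in ADCK5 had 15 background tags, 23.8 and 30.5 normalized tags and folds of 7.91 and 8.81.

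**Figure D2:**
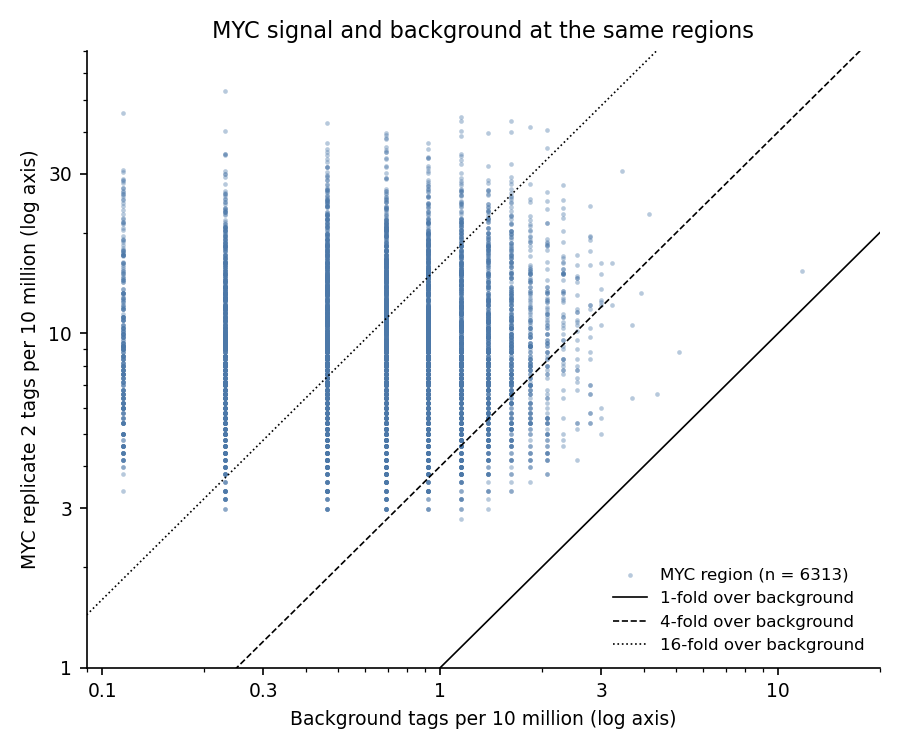
Background tags (x axis) and MYC replicate 2 tags (y axis), each per 10 M tags, at the 6313 regions, both log axes, with lines of equal value, 4-fold and 16-fold. The cloud is flat along the x axis, and the rightmost point, close to the line of equal values, is the chromosome 16 region with folds of 1.44 and 1.3.

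The background was uneven along the genome, and reproducibility moved with it. Over 276 bins of 10 Mb with at least 20 replicate 2 peaks, the median of the mean background at these peaks was 3.28 tags. In 24 bins it was above 4, a threshold chosen after the values were seen: 14 of the 15 bins of chromosome 8, the 4 bins from 30 to 70 Mb of chromosome 2 (5.04 to 5.61 tags), and 1 bin each on chromosomes 1, 5, 6, 11, 16 and 21. Those of chromosomes 1 and 16 passed by the mean only, since their median was 3 tags, as in the other autosomal bins. The ATF4 replicate 2 lists (control and activated), whose peaks lie elsewhere, also had a higher mean background in these bins (6.44 against 4.6 tags). In the 24 bins 48.8% of replicate 1 peaks had no replicate 2 peak (95% interval 46 to 51.7), against 22.9% (21.9 to 23.9) in the other autosomal bins. Without chromosome 8 the share in the remaining 10 high bins was 46.3% (41.8 to 50.8). These intervals take each peak as a separate draw and leave out the spread between bins. In single bins the share ran from 28.6% to 100% among the high bins and from 0% to 85.7% among the other autosomal bins. The gap was narrow among strong peaks: of replicate 1 peaks with at least 7 normalized tags and 2-fold, 7.74% (26 of 336) were not found again in the high bins and 4.68% (100 of 2136) in the others. Regions called in both were about as dense, 25.9 per high bin against 22.8, whereas peaks of replicate 1 alone were at 24.8 against 6.77. The median fold of the regions was lower in the high bins, 8.4 and 9.73 against 10.3 and 12.7, although their normalized tag counts were 6.89 and 9.78 against 6.18 and 8.78. The bins were chosen by background tags, which the fold divides by, so the choice itself lowers the fold. The part of the background in the difference in reproducibility was not tested.

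**Figure D3:**
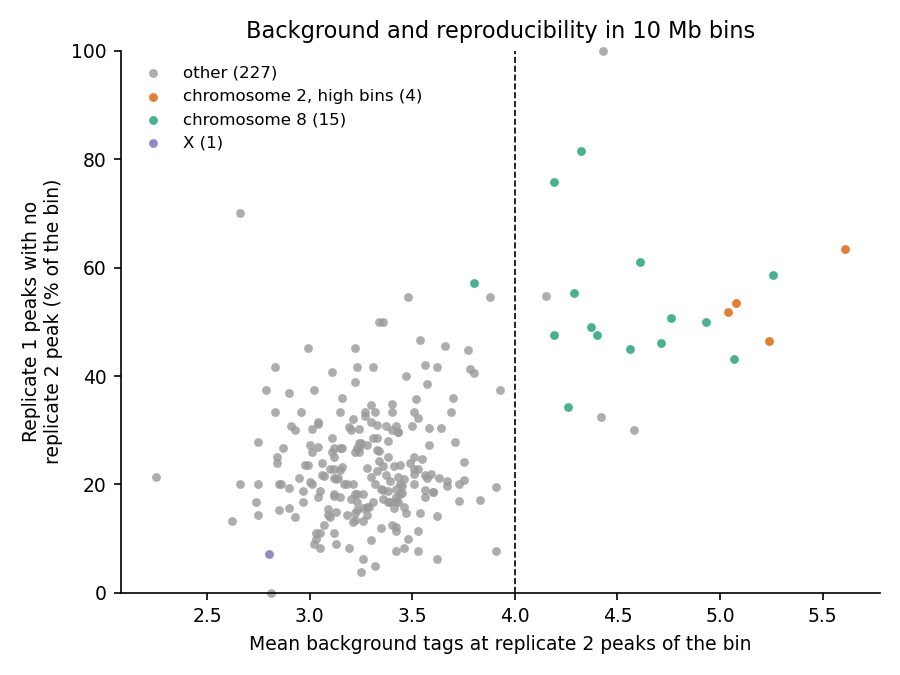
Mean background tags at replicate 2 peaks (x axis) and percentage of replicate 1 peaks without a replicate 2 peak (y axis) in 10 Mb bins with at least 10 replicate 1 peaks. The bins of chromosome 8 and the 4 high bins of chromosome 2 lie to the right, most of them above 40%, and the dashed line marks 4 tags.

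The chromosomes differed in the number of regions. Chromosome X held 41 regions, or 4.83 per 100 protein-coding genes, the lowest of the 23 chromosomes counted, with a mean of 1.91 background tags at its replicate 2 peaks, also the lowest. Chromosome 8 had the most per 100 genes, 51.8 (370 regions), with the highest mean background, 4.53 tags. Per megabase, chromosomes 17 (5.08) and 19 (4.87) were densest, although chromosome 19 had only 19.6 regions per 100 genes. The fullest megabase was 46 to 47 Mb of chromosome 22, with 23 regions near WNT7B, PPARA, CELSR1, CERK and TBC1D22A, of which 2 were at a gene end. The first and second megabase of chromosome 11 held 22 each. Those of the second lay near genes that included the mucin genes MUC6, MUC2, MUC5AC and MUC5B, with TOLLIP, MOB2 and others. Both megabases lie in the high-background bin of chromosome 11 (mean of 4.42 tags). The mean background at their regions was 3.98 and 4.89 tags, against 3.68 over all regions. The median distance between a region and its neighbour was 52535 bp, and 1290 regions (20.4%) had another within 10 kb.

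Most MYC regions were away from gene ends. Within 1000 bp of an end of a protein-coding gene lay 1798 regions (28.5%), 2490 (39.4%) lay inside genes and 2025 (32.1%) between them, with a median of 27950 bp to the nearest gene in the last class. The share of the genome that each class covers was not computed. These shares therefore show neither a preference of MYC for a place nor an avoidance of it. Signal hardly differed by place: the median was 6.18 in replicate 1 in all 3 classes, and 9.78, 8.88 and 8.38 in replicate 2 at ends, inside and between. The median log2 ratio of replicate 2 to replicate 1 was accordingly 0.58, 0.46 and 0.40. Of the peaks of replicate 1 alone 15.4% were at a gene end, and of those of replicate 2 alone 28.4%. Among the 25% of regions with the highest signal 31.5% were at a gene end, against 23.1% in the lowest 25%.

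The strongest gene-end region lay at NME1, a nucleoside diphosphate kinase, whose CACGTG is shown above. Replicate 1 gave 27.1 and replicate 2 gave 43.3 normalized tags there, at folds of 19.55 and 26.78. Behind NAT10 followed NOLC1, a nucleolar phosphoprotein (25.7 and 40.3), and the shared start of ATP5MK, an ATP synthase subunit, and PDCD11, an rRNA processing factor (26.6 and 31.5). RPL5, a protein of the large ribosomal subunit, shared 22.8 and 35.9 with DIPK1A, and SRSF1, a splicing factor, had 21.4 and 38.1. METTL1, which methylates tRNA, shared 20 and 39.7 with its neighbour EEF1AKMT3, and NOP16, a nucleolar protein, shared 22.8 and 33.7 with HIGD2A. Besides TBL1X, described above, the others of the 12 were HMGA2, a chromatin architectural factor (27.1 and 28.7), FEZF1, a transcription factor of forebrain development (26.1 and 26.7), and PEMT, which makes phosphatidylcholine (22.8 and 28.5). HMGA2 and FEZF1 had the most even replicates of the 12, with log2 ratios of replicate 2 to replicate 1 of 0.08 and 0.03.

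The highest signal of all was away from gene ends. A region of chromosome 7 from 1741916 to 1742177, inside ELFN1, reached 36.1 and 53.1 normalized tags, with 1 background tag. Inside HSPG2, a basement membrane proteoglycan, a region had 32.8 and 35.7, inside LGR6, a receptor of the R-spondin family, 28 and 40.3, inside TTC7A 26.1 and 43.1, and inside KCNG2 31.8 and 34.9. Between genes, the strongest lay 17965 bp from PKDCC (32.3 and 44.3) and 18571 bp from AZIN1, an antizyme inhibitor of polyamine metabolism (32.3 and 38.9). Another lay 17195 bp from BCL2L11, the gene of the pro-apoptotic protein BIM, with 29.5 and 39.9. Those near DOCK6, SWAP70 and TH had 28 and 40.7, 30.4 and 37.1, and 22.3 and 42.7. A region chosen after its values were seen, on chromosome 13 from 91349150 to 91349326, lay 1279 bp from the hairpin of MIR17 and had 25.2 and 29.5. It precedes the 6 hairpins of the miR-17-92 cluster, small RNAs known as MYC targets.

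The regions whose replicates differed most were near the lowest value of 1 library, 3.8 in replicate 1 or 2.79 in replicate 2. The 4 with the largest ratio of replicate 2 to replicate 1 were all at gene ends, where 28.5% of all regions lay. They were SNX5 with MGME1 (4.75 and 19.4 normalized tags), UTP11 (4.75 and 18.4), NOB1 (4.28 and 16.2) and EBNA1BP2 with CFAP57 (4.75 and 17.8). UTP11, NOB1 and EBNA1BP2 encode ribosome assembly factors. The 4 with the smallest ratio were not at gene ends: near RNF32 (6.65 and 2.99), in EMP1 (7.61 and 3.79), in EPDR1 (7.61 and 3.79) and in RGS8 (6.18 and 3.19). Over all regions the median log2 ratios at ends, inside and between genes (0.58, 0.46 and 0.40) lay close together against an SD of 0.46. These extremes are therefore not read as a pattern of place.

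The focus ratio is a fraction that rises as the tags of both strands align around the peak centre, and its medians were 0.75 and 0.747. Its ranks were less alike between the libraries than those of the signal, with a Spearman correlation of 0.313 over the 6313 regions. It rose with signal in replicate 2, from a median of 0.706 in the weakest 25% of regions to 0.781 in the strongest 25%. Besides the chromosome 16 region, high ratios were found near SEPTIN14 (0.963 and 0.979) and in PFKFB3, a regulator of glycolysis (0.944 and 0.959). Low ratios were found at TTC5 (0.36 and 0.667), near MED13L (0.393 and 0.646) and in RFPL1 (0.522 and 0.548).

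Against the ATF4 lists of the same activated cells, the median focus ratio of all MYC peaks was 0.738 ± 0.018 (SD, n = 2) and that of ATF4 peaks 0.768 ± 0.025 (SD, n = 2). The 2 groups overlapped (0.75 and 0.725 against 0.786 and 0.75), with a two-sided exact permutation p = 0.667. The median fold over background was 8.52 ± 1.05 (SD, n = 2) for MYC and 4.89 ± 0.45 (SD, n = 2) for ATF4, without overlap, with an exact permutation p = 0.333, the smallest that 2 libraries against 2 allow. Neither difference could pass a threshold in this design.

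Around gene starts the regions had an uneven profile. Starts and strands were taken from RefSeq promoter windows, each with 250 bases before and 50 after a start. They covered 15812 of 19970 protein-coding genes (79.2%) with 22034 windows and held no window of chromosome 8. On the chromosomes covered, 1571 of 5943 regions (26.4%) had their centre within 1000 bp of a start, 719 upstream and 851 downstream. The densest 50 bp lay 50 to 100 bp downstream of the start, with 123 regions. A lower second rise lay 200 to 250 bp upstream, with 83, and between them the count fell to 44 from 100 to 50 bp upstream.

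Of the 22034 promoter windows, 937 (4.25%) overlapped a MYC region, and these belonged to 856 genes. The motif CACGTG, which reads the same on both strands, was in 211 of the 937 (22.5%, exact binomial 95% interval 19.9 to 25.3) and in 1832 of all 22034 windows (8.31%). Its share rose with MYC signal, from 14.5% in the weakest 25% of the bound windows to 28.6% in the strongest 25%. Windows with many CpG dinucleotides hold CACGTG more often, so the shares were also taken by CpG count. In windows with fewer than 10 CpG, 22.8% of bound and 3.74% of unbound windows held it, and with 30 or more, 23.5% and 10.3%. Windows that overlapped only a replicate 2 peak held it in 15.9% of 2260 cases (14.4 to 17.5), between these values. The 190 regions at promoters with CACGTG had medians of 6.65 and 11.8 normalized tags, a replicate 2 fold of 17.4 and focus ratios of 0.780 and 0.774. The 586 regions that overlapped windows without it alone had 6.18 and 9.98, a fold of 12.3 and focus ratios of 0.75 and 0.744.

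Related motifs differed in share and in place. CATGTG, read on both strands, was in 12.5% of bound and 8.96% of all windows, CACGCG in 26% and 14.2%, and CACGAG in 15.7% and 7.39%. The comparison E-box CAGCTG, which other helix-loop-helix factors prefer, was in 12.8% of bound and 18% of all windows. At least 1 of the canonical E-box and these 3 relatives was in 580 of the 937 bound windows (61.9%) and in 33.5% of all windows, which leaves 357 bound windows with none. Unlike those of CACGTG, these shares were not taken by CpG count, and CACGCG and CACGAG hold a CpG while CATGTG and CAGCTG do not. Windows with fewer than 10 CpG were bound in 0.862% of cases, against 3.07% to 8.22% in the other classes. The part of CpG content in these differences was not tested. Within 25 bp of the replicate 2 peak centre lay 34.7% of the 222 matches of CACGTG and 35.2% of the 122 of CATGTG, with 23.1% of the 134 of CACGAG, 15.4% of the 273 of CACGCG and 7.44% of the 121 of CAGCTG. The palindromes ACCGGT and GACGTC, searched for comparison, had 12.5% of 24 and 7.69% of 65 matches there. ACCGGT was in 2.77% of bound and 1.99% of all windows and GACGTC in 7.47% and 5.91%. As a ratio, the bound share of CATGTG exceeded that of all windows about as much as that of ACCGGT did. The exact binomial interval of the bound share of CATGTG, 10.4 to 14.8%, lay above its share of all windows. Those of ACCGGT, with 26 bound windows (1.82 to 4.04%), and of GACGTC (5.87 to 9.34%) included theirs. A match is a description of the letters, not of a site in use.

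**Figure D4:**
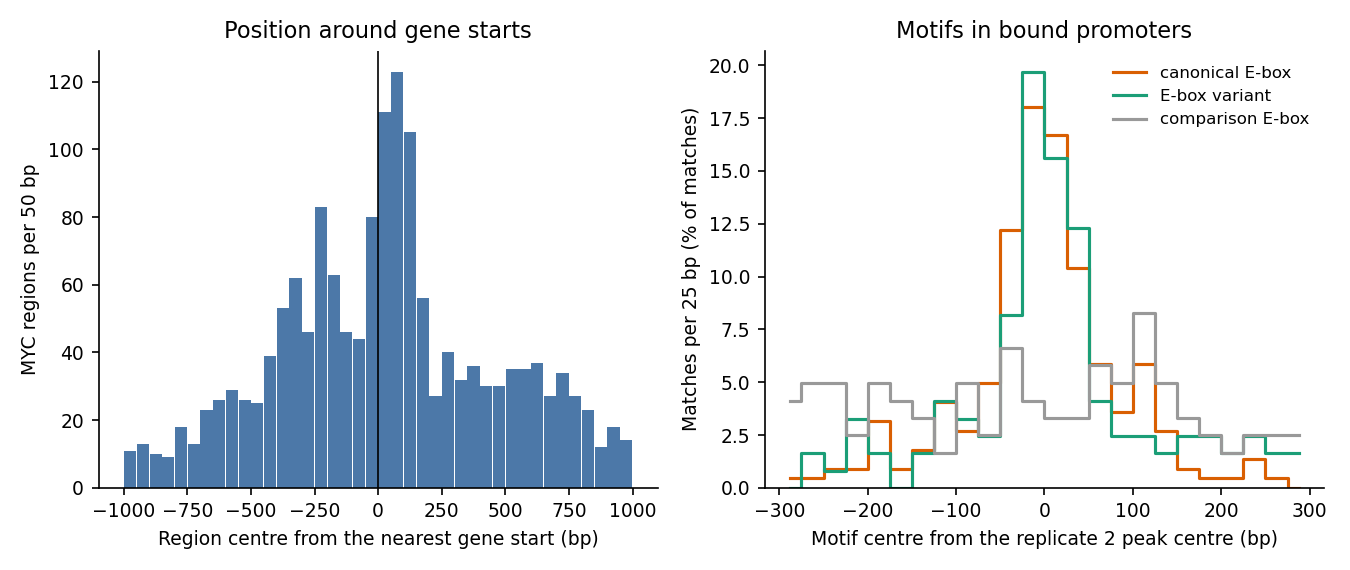
Left, number of MYC regions per 50 bp by the distance of their centre from the nearest gene start. Right, percentage of matches per 25 bp by distance from the replicate 2 peak centre for the canonical E-box CACGTG (222 matches), the variant CATGTG (122) and the comparison CAGCTG (121). The left panel peaks just after the start, and on the right the first and second motif peak at the centre while the third is flat.

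Strong regions also stood at starts without CACGTG. The stretches shown for 3 of them, among the 8 strongest such regions, mark in capitals the related motif nearest to the replicate 2 peak centre, as the strand of the gene has it.
ATP5MK, chr10:103396658-103396687, minus strand: gcggtactcacaCACGCGgagaccaggata
NOP16, chr5:176388580-176388609, minus strand: aggagtttgttaCACGAGgtctgagagaca
SLC3A2, chr11:62856126-62856155, plus strand: tctcacccagtgCATGTGgcaggagcggtg
These motifs lay 36.5, 28.5 and 35.5 bp from the centre. SLC3A2, the heavy chain of amino acid transporters, had 20 and 25.1 normalized tags. At PEMT the nearest related motif was 79.5 bp from the centre. None of the 4 motifs was in the windows of CDC123, CCDC47 and RBM26, whose regions had 20.4 and 31.3, 19.5 and 27.7, and 16.2 and 31.5. Of the 586 regions with CACGTG in none of the windows they overlapped, 272 had none of the 4 motifs there.

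Genes for ribosome production and for protein folding had the highest shares of the 22 lists examined. Of 19970 protein-coding genes, 2083 (10.4%) had a region within 1000 bp of an end, and each list below is read against that share, with no test. An end is the start of a gene or its other end, so a gene counted here need not be bound at its promoter. On the chromosomes with promoter windows, 1350 of 1714 gene-end regions (78.8%) also had their centre within 1000 bp of a start. The lists hold 484 entries, of which 483 matched a distinct gene by symbol or synonym. At 402 of the 1798 gene-end regions 2 or more genes had an end, and such a region was counted for each of them. Several genes named below share theirs, among them AIMP2 (with PMS2), KARS1 (with TERF2IP) and CCT4 (with COMMD1). Of the ribosome biogenesis genes 24 of 35 (68.6%) had one, with a median signal of 11.7 and 17.4 normalized tags, above the 6.18 and 9.98 of all genes with a region. The 4 strongest were NAT10, NOLC1, NOP16 and GNL3, all described above. Of the 44 cytosolic ribosomal protein genes 30 (68.2%) had one, at medians of 9.03 and 15.3, led by RPL5, RPL32 (18.5 and 21.4), RPL7 (16.2 and 22.2) and RPL9 (16.2 and 22.2). In the replicate 2 list alone 43 of the 44 had a peak, where 32.7% of all genes had one. Of 11 chaperonin and prefoldin subunit genes, whose products fold newly made proteins, 9 had a region (81.8%), led by CCT3 (14.3 and 20), CCT2 (10.9 and 18), CCT6A (9.03 and 15.8) and CCT4 (9.98 and 13.8). The median background of these last 2 lists was 5 tags in the replicate 2 list against 4 for all genes with a region, and their median folds were 8.75 and 6.17 in replicate 1 and 13.1 and 12.7 in replicate 2, against 9.47 and 13.1 for all. Where only peaks of at least 8-fold were kept, the counts were 18 of 35, 17 of 44 and 3 of 11, against 5.69% of all genes.

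**Figure D5:**
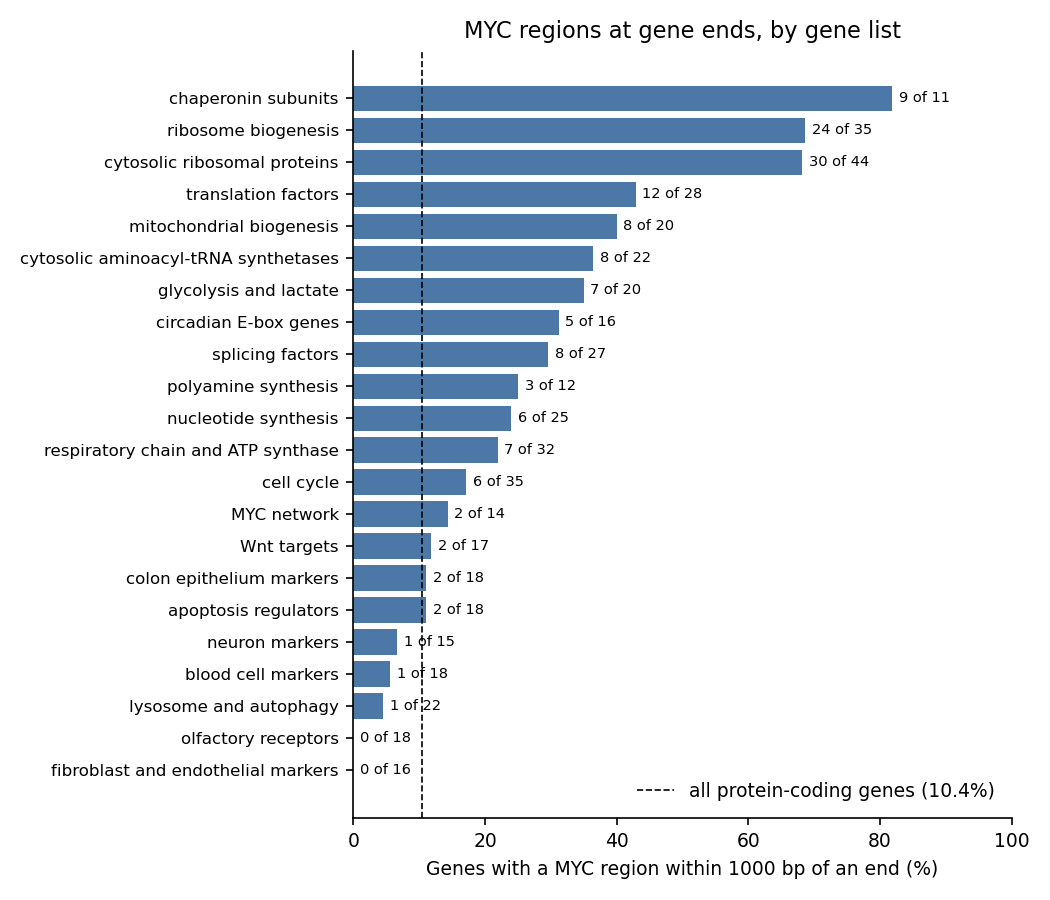
Percentage of the genes of each list with a MYC region within 1000 bp of an end, with the counts beside the bars and the share of all protein-coding genes (10.4%) as a dashed line. The 3 lists of chaperonin, ribosome biogenesis and ribosomal protein genes stand above 60%, and 5 lists lie under the line.

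Other lists of translation and RNA processing also had shares above that of all genes. Translation factors had regions at 12 of 28 genes (42.9%), led by EIF3E (14.7 and 17.2 normalized tags), EIF4A1 (9.03 and 19.2), EIF3D (7.13 and 20.8) and EIF4E (9.03 and 14.6), which encode initiation factors. Genes of cytosolic aminoacyl-tRNA synthetases and of AIMP proteins, which bind synthetases and are not synthetases themselves, had them at 8 of 22. The strongest were FARSB (13.8 and 29.7), AIMP2 (15.7 and 21.8), KARS1 (9.98 and 16.6) and NARS1 (6.18 and 13). In the replicate 2 list alone 21 of these 22 had a peak, against 32.7% of all genes. Of the splicing factors 8 of 27 had one, with the highest median of any list with more than 1 bound gene, 14.3 and 21.7, led by SRSF1, SRSF7 (16.6 and 27.1), SF3B3 (15.7 and 23.9) and U2AF2 (14.3 and 23.4).

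Metabolic lists were covered in part, at shares from 21.9% to 40%, against 10.4% of all genes. Genes of mitochondrial biogenesis had regions at 8 of 20, led by PHB2 (14.3 and 21), TIMM44 (9.98 and 19.8), TFB1M (10.5 and 16.8) and LONP1 (8.56 and 17.2), for a prohibitin, an import factor, a mitochondrial rRNA methyltransferase and a protease. Glycolysis and lactate genes had them at 7 of 20, led by LDHB (13.8 and 31.7), ENO1 (12.4 and 23.9), GAPDH (5.7 and 18) and LDHA (4.75 and 13.8). The respiratory chain list had 7 of 32, led by ATP5MK, NDUFC1 (8.08 and 15), CYC1 (9.51 and 12.6) and UQCRC2 (9.03 and 8.38). Nucleotide synthesis had 6 of 25, led by NME1, GART (12.4 and 15.4), ADSL (9.51 and 18.2) and UMPS (7.13 and 9.78). Polyamine synthesis had 3 of 12: AZIN1 (10.5 and 13.8 at its gene end), MTAP (5.23 and 10.2) and SRM, the spermidine synthase (5.7 and 8.18).

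Most lists of regulators were nearer to the 10.4% of all genes with a region. The cell cycle list had 6 of 35 genes with a region (17.1%), led by CDK4 (7.13 and 9.38), MCM3 (5.7 and 11.4), CDKN2D (4.75 and 11.2) and CKS1B (4.28 and 10.2). Their signal was under that of the ribosome lists. In the MYC network 2 of 14 had one (14.3%), MXD1 (9.51 and 15.8) and MAX (6.65 and 10.8), a repressor partner of MAX and MAX itself. Circadian genes regulated through E-boxes had 5 of 16 (31.2%), led by DBP (15.7 and 21.6), NR1D1 (8.56 and 23), BHLHE40 (7.13 and 11.6) and TEF (5.7 and 8.78). Wnt targets had 2 of 17 (11.8%), AXIN2 (4.75 and 15.2) and ZNRF3 (7.13 and 7.98). Apoptosis regulators had 2 of 18 (11.1%), among them the death receptor gene TNFRSF10B (6.65 and 14.8). Both shares were near that of all genes. Lysosome and autophagy genes had 1 of 22 (4.55%), under it.

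Markers of cell types were at or near the share of all genes or under it. Colon epithelium markers had 2 of 18, TFF3 (12.4 and 18.2 normalized tags) and CDX2 (5.23 and 4.99). Blood cell markers had 1 of 18, CD8A (13.3 and 24.1), neuron markers had 1 of 15, RBFOX3 (4.75 and 6.39), and neither the 16 fibroblast and endothelial markers nor the 18 olfactory receptors had any. Binding at a marker is not its expression, so these counts do not check the labelled cell type.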

How the data were processed

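The deposited files were 1 peak list per ATF4 and MYC library, called per library. Per the submitters' processing notes, Bowtie 0.12.9 and HOMER were used with hg38, and no settings are given. Per the file headers, each peak had a normalized tag count (a signal scaled by the authors to 10 M tags), a peak score, a focus ratio (a fraction), total tags (a count in the replicate 1 lists), control tags, and the authors' fold and p-value over background and surroundings. In the replicate 1 lists the control tags are scaled to the MYC library, and in the replicate 2 lists the total tags are scaled to the background library. Library depth follows from the constant spacing of the low normalized values, since 1 tag is 1 step.

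Peaks overlapping by 1 bp were merged with Python 3.11.15 and pandas 2.3.3. Gene spans were those of RefSeq (GRCh38.p14), protein-coding, without chromosome Y and the mitochondrial genome. Motifs were searched on both strands. The scripts were tested on simulated data. Regions were named by a rule: the strongest at gene ends (12), inside genes (6) and between genes (6), those with the highest background, lowest fold, most different replicates and extreme focus ratios, and up to 4 genes per list, by the mean log2(tags + 1). The regions and lists were chosen with earlier results of these data known. Other overlaps, windows and fold thresholds were tried. Some genes and sites that the rule names are not reported here.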

Additional observations from a re-analysis of the deposited data

How the results depend on the processing

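The number of regions was 6313, from 5716 to 6122 under stricter overlaps or an equal lowest tag count in both lists, 5691 without the bins of high background (chosen after seeing the data), and 3541 when only peaks of at least 8-fold were used. Leaving out 1 replicate, so that all peaks of the other list counted, gave 8636 to 22532. The share at a gene end (28.5%) was 21.9% within 500 bp, 34.9% within 2500 bp and 36.7% with all annotated genes, and 24.8% to 28.4% with 1 replicate left out. The share of all genes with a region (10.4%) was 5.69% at 8-fold and 11.9% to 32.7% with 1 replicate left out. The median over regions of the mean normalized tag count (7.54) was 8.87 at 8-fold and 4.99 to 5.7 with 1 replicate left out, and the median focus ratio (0.748) was 0.725 to 0.75. The share under 4-fold in both (2.69%) was 10.3% to 18.2% of the peaks of 1 list. The share of bound promoters with CACGTG (22.5%) was 18.5% over the bases before the start alone, 26.9% at 8-fold and 18% to 23% with 1 replicate left out. The cause of these shifts was not tested, beyond that fewer or other peaks enter.

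With the replicate block, the differences of MYC from ATF4 were the same, -0.0305 in focus ratio and 3.63 in fold, each with an exact sign-flip p = 0.5, the smallest it allows. No difference changed sign when a library was left out (-0.0485 to -0.0125, and 2.89 to 4.37). The median region had 13 tags in replicate 1.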
